A study of Mus musculus with 12 samples.

Results

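The classical complement pathway and its inhibitor were represented by 7 genes of the panel, taken as the rows listed under the symbols C1qa, C1qb, C1ra, C1s1, C2, C4b and Serping1, out of 750 endogenous genes. All 7 reached a value of 20 in 3 or more tumors, the minimum for testing, as did 646 of the 750 genes. The samples were 12 whole tumors of CT26, a mouse colon carcinoma line grown under the skin of BALB/c mice, which have an intact immune system. Per the sample labels, mice entered the groups once tumors measured 130 to 170 mm3 and tumors were resected 4 days after dosing, in 4 groups of 3 mice: vehicle, DSP-0509 (a small-molecule TLR7 agonist) at 5 mg/kg intravenously, anti-PD-1 antibody (clone RMP1-14, which blocks an inhibitory receptor of T cells) at 200 µg/mouse intraperitoneally, and the combination of both. The paper puts the tumors at a smaller volume when dosed than the labels do. The question was how each treatment, alone and together, changed immune genes in the tumor. A value is the number of RNA molecules counted with a barcoded probe, multiplied by 1 factor per tumor, and is called a normalized count here. In a whole tumor, more cells of a type and more RNA per cell cannot be told apart.

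Complement is a protease cascade of plasma and tissue fluid. In its classical arm, C1q binds antibody complexes, dying cells and other surfaces. The proteases C1r and C1s, which ride on C1q, then become active in turn, and C1s cleaves C4 and C2 to build the enzyme that cleaves C3. C1 inhibitor, encoded by Serping1, inactivates C1r and C1s. In mouse tumors C1q is known mostly as a product of macrophages, whereas fibroblasts, endothelial cells and many tumor cells can make C1r, C1s, C4 and C1 inhibitor. Transcription of C2, C4 and Serping1 is known to respond to interferons.

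Against vehicle, 5 of the 7 genes rose in the combination group: Serping1 3.38-fold, C4b 3.25-fold, C2 2.86-fold, C1s1 1.83-fold and C1ra 1.61-fold. The same call held for 21.5% of all genes tested in the upward direction, and no member fell. The genes of the recognition unit, C1qa (1.32-fold) and C1qb (1.33-fold), did not pass. Neither monotherapy gave a call for any member. The median log2 difference of the 7 genes from vehicle was 0.37 under DSP-0509, 0.29 under anti-PD-1 antibody alone and 0.87 under the combination, beside 0.20, 0.18 and 0.34 over all 646 genes.

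Tumors were counted to between 750416 and 1155697 molecules each (median 951162). C2, the member with the fewest molecules, was counted 49 to 247 times per tumor, and the mean of the 8 negative control probes lay between 6.25 and 12.5 counts in each tumor. The median gene was itself higher in the combination group, and its log2 difference from vehicle of 0.34 became -0.13 under quantile normalization and -0.19 with every tumor centred on the median gene. Genes called in the combination numbered 139 higher and 3 lower, 65 and 70 after quantile normalization, and 63 and 136 after centring. The housekeeping genes had a median log2 difference of -0.12 in the same comparison. The labels do not give a cartridge, lane or day of measurement.

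**Figure D1:**
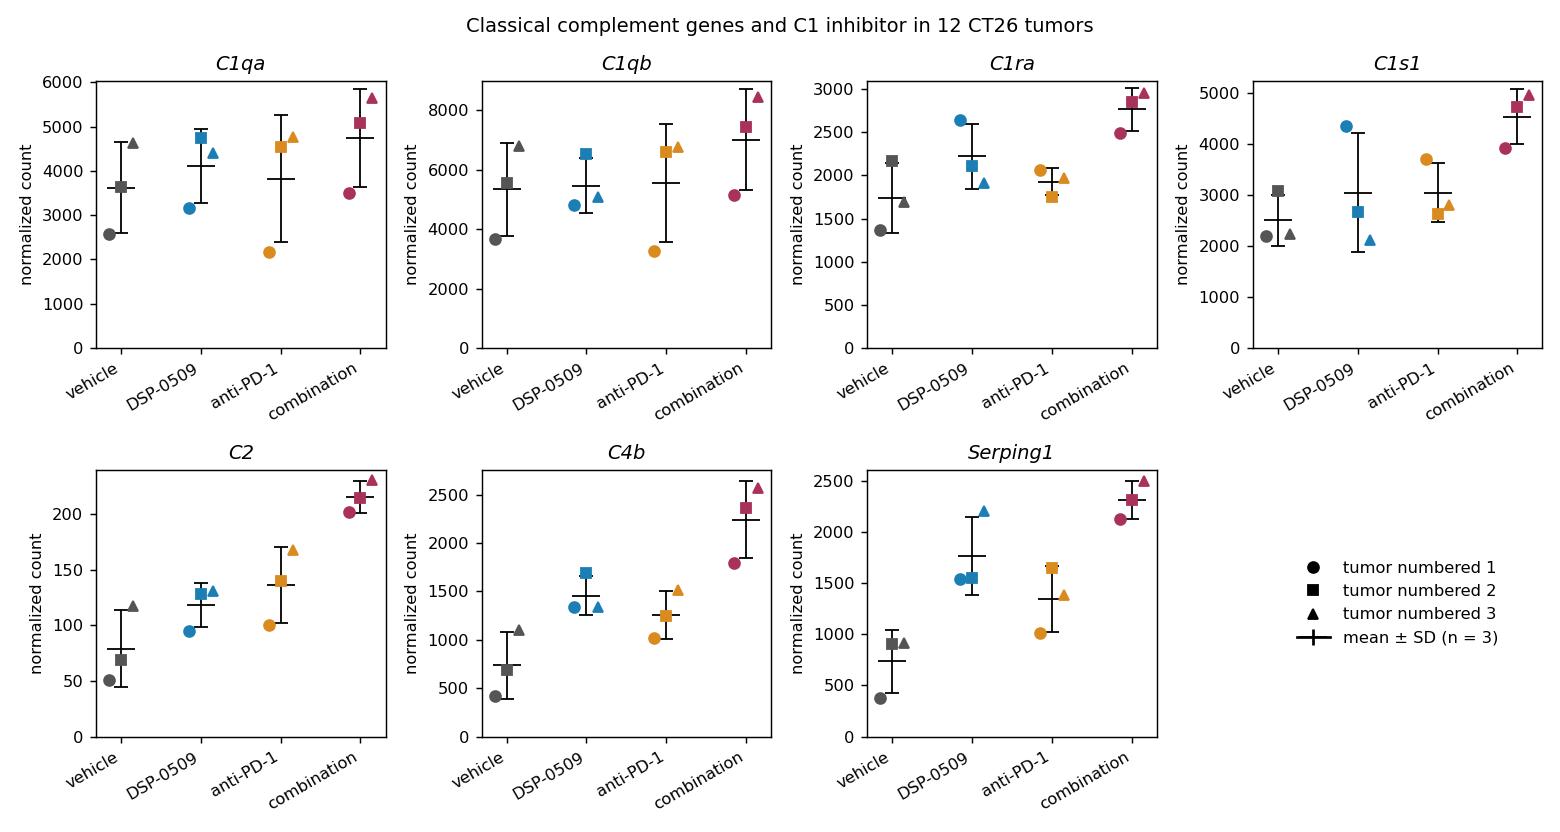
Normalized counts (linear axis from 0) of the 7 genes in each of the 12 tumors by treatment group. Points are tumors, their shape gives the number in the label, and bars are the mean ± SD of 3 tumors. All 3 combination tumors lie above all 3 vehicle tumors for C1ra, C1s1, C2, C4b and Serping1, but not for C1qa and C1qb.

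C1qa and C1qb encode the A and B chains of C1q, and the gene of the third chain, C1qc, lies between them on chromosome 4 and was not analysed here. C1qa read 2581, 3624 and 4637 in the vehicle tumors and 3166, 4747 and 4401 with DSP-0509. It read 2174, 4528 and 4772 under anti-PD-1 antibody alone and 3501, 5078 and 5632 under the combination. The spread inside each group was wider than the distance between groups, and in all 4 groups the tumor numbered 1 was the lowest. C1qb had the same pattern. Its group means were 5339 ± 1575 (SD, n = 3) for vehicle, 5467 ± 927 under DSP-0509, 5555 ± 1971 under anti-PD-1 antibody alone and 7016 ± 1696 under the combination, so that all 4 groups overlapped. In the combination the log2 difference from vehicle was 0.40 for C1qa (SE 0.34, adjusted p = 0.423) and 0.41 for C1qb (SE 0.33, adjusted p = 0.398), close to that of the median gene. With centring on the median gene both turned negative, to -0.13 and -0.12. The interval for C1qa, from -0.35 to 1.15, still holds more than a doubling, so these tumors do not show that C1q stayed level. Without the 4 tumors numbered 1, a check chosen after seeing the data, neither gene passed (adjusted p = 0.121 and 0.168).

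C1ra and C1s1 encode the proteases C1r and C1s and are next to each other on chromosome 6. C1ra read 1367, 2163 and 1687 in the vehicle tumors, 2646, 2106 and 1917 with DSP-0509, 2060, 1753 and 1975 under anti-PD-1 antibody alone, and 2489, 2847 and 2959 under the combination. The combination tumors were all above the vehicle and anti-PD-1 tumors, while the DSP-0509 tumor numbered 1 reached into their range. The rise from vehicle was 0.69 on the log2 scale (95% confidence interval 0.27 to 1.11, adjusted p = 0.0269). C1s1 read 2193, 3069 and 2229 with vehicle, 4344, 2665 and 2120 with DSP-0509, 3707, 2620 and 2807 under anti-PD-1 antibody alone, and 3924, 4720 and 4949 under the combination. Here too only the DSP-0509 tumor numbered 1 overlapped the combination tumors, and the DSP-0509 group had the widest spread of the 4 (coefficient of variation 38.1%). The rise of C1s1 from vehicle was 0.87 (0.29 to 1.45, adjusted p = 0.0392). In the main fit and when single tumors were left out, these were the least firm of the 5 calls. C1ra kept its call in 8 of 12 fits that each left out 1 tumor and lost it without vehicle 1, vehicle 3, combination 2 or combination 3 (adjusted p up to 0.108), and in a fit of only the vehicle and combination tumors (0.0639). C1s1 kept it in 4 of 12 and also lost it when combination 1, anti-PD-1 antibody 2 or 3, or DSP-0509 2 was left out (up to 0.128). Mouse has a neighbouring second copy of each gene, C1rb and C1s2, and whether the probes tell the copies apart was not tested.

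RefSeq promoters (GRCm38.p6, 250 bases before to 50 after an annotated start) were at hand for 3 of the 7 genes and are shown as a description. Whether their sequence bears on the changes of these genes was not tested. Capitals mark matches, on either strand, to the letters TTCNNNGAA (gamma-activated site) or TTGCNNAA (C/EBP), and no 2 matches overlap.
C1qb, chr4:136886151-136886450, minus strand: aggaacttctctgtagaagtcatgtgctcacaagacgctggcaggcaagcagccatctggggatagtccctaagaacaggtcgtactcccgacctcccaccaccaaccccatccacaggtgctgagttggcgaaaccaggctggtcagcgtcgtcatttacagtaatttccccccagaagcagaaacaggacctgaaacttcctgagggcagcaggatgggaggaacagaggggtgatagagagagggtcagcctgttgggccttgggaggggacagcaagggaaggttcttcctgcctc
C1ra, chr6:124512371-124512670, plus strand: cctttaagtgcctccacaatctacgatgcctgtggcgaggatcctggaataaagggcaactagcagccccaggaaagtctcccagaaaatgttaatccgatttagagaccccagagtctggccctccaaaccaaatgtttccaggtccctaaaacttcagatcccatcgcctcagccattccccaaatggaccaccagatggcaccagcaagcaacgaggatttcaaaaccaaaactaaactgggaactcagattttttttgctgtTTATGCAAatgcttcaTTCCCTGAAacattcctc
C1s1, chr6:124542310-124542609, minus strand: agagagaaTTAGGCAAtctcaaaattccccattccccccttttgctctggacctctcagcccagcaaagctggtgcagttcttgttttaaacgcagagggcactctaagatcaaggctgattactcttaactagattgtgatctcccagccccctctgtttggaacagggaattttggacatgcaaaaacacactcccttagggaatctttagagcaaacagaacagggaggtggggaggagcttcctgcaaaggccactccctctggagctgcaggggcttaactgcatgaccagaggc
In C1ra the match TTCCCTGAA lay at bases 32 to 40 and a C/EBP match at bases 16 to 23, counted from 0 at the annotated start. C1s1 held 1 C/EBP match, at bases -242 to -235, and C1qb held none. GAAANNGAA (IRF element), GGGNNTTCC (NF-kappaB) and GAGGAAG (PU.1) were searched in the same way and had no match in the 3 windows. Of 32851 promoters of this length, 8.30% held the gamma-activated letters, 10.8% the C/EBP letters, 8.56% the IRF letters, 5.82% the NF-kappaB letters and 13.6% the PU.1 letters, so these matches are common and are given as a description. A second annotated start of C1s1 was searched too and had no match.

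C4b and C2, the substrates of C1s, lie in the same stretch of the major histocompatibility complex on chromosome 17. C4b read 416, 686 and 1105 in the vehicle tumors and 1338, 1687 and 1340 with DSP-0509. It read 1023, 1242 and 1515 under anti-PD-1 antibody alone and 1795, 2362 and 2571 under the combination. The lowest combination tumor was above the highest of the other 9, and the DSP-0509 tumors were also all above vehicle. Taken pair by pair, the combination tumors were all above vehicle for 38.5% of all genes, above DSP-0509 for 16.7% and above anti-PD-1 antibody for 15.5%. The share of genes with all of these at once was not counted. C4b rose by 1.70 on the log2 scale in the combination (95% confidence interval 1.01 to 2.40, adjusted p = 0.00741). Mouse has a nearby homologue, C4a, and whether the C4b probe tells them apart was not tested.

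C2 read 50.9, 69.2 and 117 with vehicle and 95.01, 129 and 131 with DSP-0509. It read 101, 140 and 168 under anti-PD-1 antibody alone and 202, 214 and 230 under the combination. As for C4b, the 3 combination tumors were above all other tumors, an order whose share among all genes was not counted. They had the narrowest spread of the 4 groups, with a coefficient of variation of 6.70% against 43.3% for vehicle. The rise in the combination was 1.52 (0.87 to 2.16, adjusted p = 0.00822).

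Serping1, the gene of C1 inhibitor, read 383, 903 and 918 with vehicle and 1536, 1546 and 2205 with DSP-0509. It read 1009, 1645 and 1379 under anti-PD-1 antibody alone and 2129, 2311 and 2500 under the combination. Every treated tumor was above every vehicle tumor, a pattern whose share among all genes was not counted. The order of the group means was vehicle, anti-PD-1 antibody, DSP-0509 and combination, with neighbouring treated groups overlapping. Serping1 rose by 1.76 in the combination (95% confidence interval 1.03 to 2.48, adjusted p = 0.00741) and ranked 19 of 646 genes by size of the rise. C4b ranked 23 and C2 40, against 171 and 226 for C1s1 and C1ra, and 310 and 311 for C1qb and C1qa. C2, C4b and Serping1 were called in all 12 fits that left out 1 tumor and under each scaling tried. The methods' t-test gave them adjusted p-values of 0.104, 0.108 and 0.106, beside 0.0982 for C1s1 and 0.128 for C1ra. With the 4 tumors numbered 1 left out, 5 members were again called, as were 26.2% of genes in either direction. C1ra and C1s1 were called after rescaling to the housekeeping genes, where 35.9% of genes were called in either direction. They were not called after quantile normalization (adjusted p = 0.0798 and 0.218) or centring on the median gene (adjusted p = 0.557 and 0.381).

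**Figure D2:**
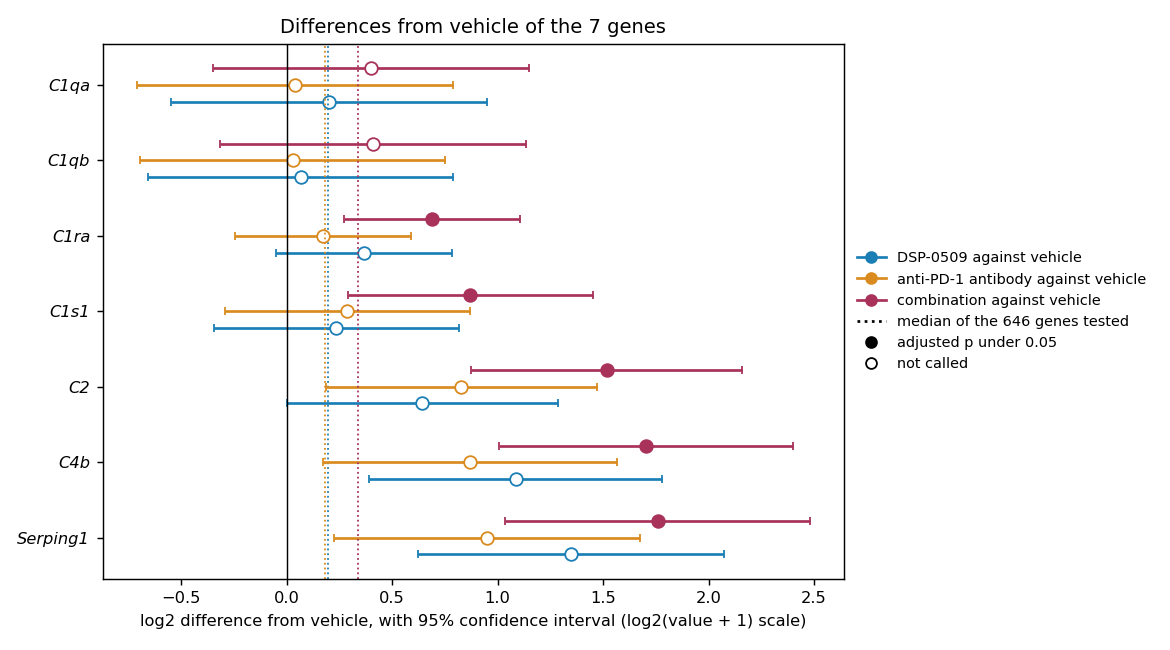
Log2 difference of each gene from vehicle under the 3 treatments (limma over 12 tumors), with 95% confidence intervals. Filled points passed an adjusted p of 0.05, and dotted lines mark the median of the 646 genes tested. The 5 filled points are all of the combination, and C2, C4b and Serping1 lie farthest to the right.

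All 3 comparisons with vehicle use the same 3 vehicle tumors, so they are not independent of each other. With DSP-0509 alone, where 0.774% of genes passed, Serping1 was 1.35 above vehicle on the log2 scale (adjusted p = 0.0617), C4b 1.09 (0.120) and C2 0.64 (0.305). The 3 DSP-0509 tumors did not overlap vehicle for C4b and Serping1, as for 16.4% of all genes, and overlapped it for the other 5. With anti-PD-1 antibody alone, where 0% of genes passed, Serping1 was 0.95 above vehicle (adjusted p = 0.256), C4b 0.87 (0.258) and C2 0.83 (0.258), and only Serping1 had no overlap (12.4% of all genes). Same-numbered tumors of these 2 groups deviated together, and with the tumor number as a replicate block C2 passed (adjusted p = 0.0428), as did 4.95% of genes, while Serping1 (0.0509) and C4b (0.0561) fell short. For C1qa, C1qb, C1ra and C1s1 the log2 differences lay between 0.03 and 0.37 in both comparisons. In the combination 5 members were free of overlap with vehicle, a pattern shared by 38.5% of all genes.

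Averaged over the presence or absence of the antibody, so that 6 tumors given DSP-0509 stood against 6 that were not, Serping1 was 1.08 higher on the log2 scale (SE 0.23, adjusted p = 0.0277) and C4b 0.96 higher (SE 0.22, adjusted p = 0.0287). These were the 2 members called, beside 5.73% of all genes. Serping1 read 1536 to 2500 with the drug and 383 to 1645 without it, and 1 antibody-treated tumor bridged the sets. C4b read 1338 to 2571 with it and 416 to 1515 without. The call of Serping1 was lost when combination 2, combination 3, anti-PD-1 antibody 1 or DSP-0509 3 was left out (adjusted p up to 0.0788), and C4b kept its call in 3 of 12 such fits (up to 0.0833), losing it when vehicle 1 or 2, combination 2 or 3, anti-PD-1 antibody 1 or 2, or any DSP-0509 tumor was left out. The average effect of the antibody passed for no member and for 0.929% of genes. It was largest for C2, 0.85 (SE 0.20, adjusted p = 0.0645), and C4b followed at 0.74 (adjusted p = 0.0986). It averages 2 comparisons whose same-numbered tumors deviated together, and with the replicate block C2 (adjusted p = 0.0158), C4b (0.0230) and Serping1 (0.0300) passed, as did 19.5% of genes in the upward direction.

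The step from either monotherapy to the combination was positive for all 7 members but passed for none. From DSP-0509 to the combination the log2 differences ran from 0.20 for C1qa to 0.87 for C2 (lowest adjusted p = 0.422), and from anti-PD-1 antibody to the combination from 0.36 for C1qa to 0.83 for C4b (lowest adjusted p = 0.437). In each case 0% of all genes passed. Without adjustment, p was under 0.05 for 2 members in the first step and 5 in the second, against 64 and 66 of 646 genes. C2 and C4b did not overlap between DSP-0509 and the combination, as 16.7% of all genes, and C1ra, C1s1, C2, C4b and Serping1 did not overlap between anti-PD-1 antibody and the combination, as 15.5%. No member differed between the monotherapies, nor did any gene (0%), and an unadjusted p under 0.05 was reached by 0 members and 25 genes. The interaction, which asks whether the combination departs from the sum of the single effects on the log2 scale, passed for no member and for 0% of genes, with 0 members and 9 genes at an unadjusted p under 0.05. For Serping1 it was -0.54, with an interval from -1.56 to 0.48, which holds both a smaller and a larger effect than the sum.

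Ratios between genes within a tumor do not depend on the factor by which that tumor was scaled. Set against the vehicle mean, the log2 ratio of C4b to C1qa was 0.65 to 1.12 in the DSP-0509 tumors, 0.50 to 1.28 in the anti-PD-1 tumors and 1.24 to 1.40 in the combination tumors, and at most 0.30 in vehicle. C4b, C2 and Serping1 were each higher relative to C1qa in all 9 treated tumors than in any vehicle tumor, which was true of 11.0% of the other genes tested. C1ra and C1s1 were not. Their ratios to C1qa were highest in the antibody-treated tumor numbered 1, at 0.96 and 1.28, and ran from 0.11 to 0.67 in the combination tumors. Within each pair, C1qb to C1qa stayed between -0.10 and 0.05 except in DSP-0509 tumor 3 (-0.35), and C2 to C4b was -0.63 to -0.17 in the DSP-0509 tumors, overlapping the combination (-0.30 to 0.03).

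**Figure D3:**
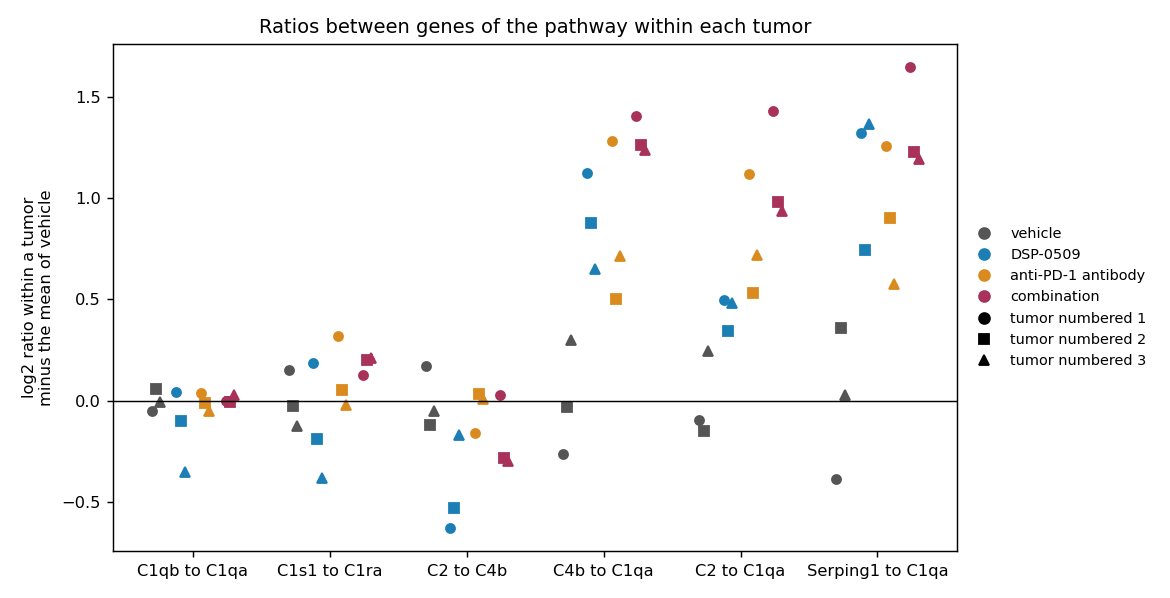
Log2 ratio of pairs of genes in each tumor, minus the mean of that ratio in vehicle. Colors are treatment groups and shapes are tumor numbers. The ratios of C4b, C2 and Serping1 to C1qa are above the vehicle tumors in all 9 treated tumors, whereas C1qb to C1qa stays near 0 apart from 1 DSP-0509 tumor.

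Over the 12 tumors the members fell into 3 sets, as a description of tumors that share treatment and scaling. C1qa and C1qb had a Pearson r of 0.97 (Spearman rho 0.94), C1ra and C1s1 0.90 (0.92), and C4b was tied to C2 at 0.95 (0.90) and to Serping1 at 0.93 (0.88). Between the sets r was lower but not small, up to 0.78 for C1ra with C4b. After the group means were subtracted, C1qa kept a correlation of 0.85 with C2, 0.80 with C4b and 0.72 with Serping1. It had none of note with C1ra (0.01) and a negative one with C1s1 (-0.38). With the deviations of the 4 groups pooled, C2, C4b and Serping1 thus went with C1q, and the proteases did not. The tumor numbered 1 was the lowest in all 4 groups for C1qa, C1qb, C2, C4b and Serping1, as for 24.5% of genes tested. For C1ra and C1s1 it was the highest in 2 groups and the lowest in 2. Correlations apart from the tumor number were not computed.

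The genes outside the pathway whose 12 values were most like each member also differed between the sets. C1qa was closest to Btk (0.98) and Lyn (0.97), kinases of myeloid and B cells, and to Csf1r (0.97), the receptor for macrophage growth factor. C1qb was closest to Tlr2 (0.96), Ly86 (0.95) and the macrophage marker Emr1 (0.95). C1ra was closest to Bst2 (0.91), an interferon-induced restriction factor, Txk (0.89) and the nucleic acid sensor Zbp1 (0.87), and C1s1 to the class I gene H2-D1 (0.89), Bst2 (0.87) and the cytokine-signaling inhibitor Socs1 (0.87). C2 was closest to Cd84 (0.97), Ctsh (0.96) and Il18 (0.94). C4b was closest to H2-T23 (0.97), Itgb2 (0.96) and Cd84 (0.96), and Serping1 to Pdcd1 (0.96), the interferon-induced gene Xaf1 (0.96) and H2-T23 (0.96). With group means removed the first places went to Lyn (0.99) for C1qa, Psen2 (0.98) for C1qb, H2-D1 (0.83) for C1ra, Cd47 (0.91) for C1s1, Irak3 (0.98) for C2, Clec4a2 (0.96) for C4b and Itgb4 (0.96) for Serping1. These are the highest of 639 correlations for each member and carry no test.

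Beyond the classical arm, 24 other complement genes were on the panel and 17 passed the filter. In the combination 4 of the 17 rose from vehicle and none fell, a share near the 21.5% of all genes tested that were called higher. The median of the 17 was 0.74 beside 0.34 for all genes. C3, on which all arms converge, read 599, 694 and 1009 with vehicle and 2627, 2395 and 2320 under the combination, with no overlap. It rose by 1.71 (adjusted p = 0.00329) and kept its call under each scaling and in each of the 12 fits that left out 1 tumor. It was also higher in the average over DSP-0509, by 0.87 (adjusted p = 0.0277). Cfb, the protease that takes the place of C2 in the alternative arm and sits beside C2 in the genome, rose by 1.32 (adjusted p = 0.0446). Cd55, a membrane inhibitor that dissociates the C3-cleaving enzyme, rose by 1.57 (0.0362). C8b, of the membrane attack complex, rose by 0.83 (0.0314) at only 10.2 to 29.6 counts, a range that reaches into that of the negative probes. It reached 20, the minimum for testing, only in treated tumors and in no vehicle tumor. It was therefore tested only because of its values in treated tumors, and its call carries little weight. After quantile normalization or centring, Cfb, Cd55 and C8b were no longer called, and leaving out 1 tumor kept the call in 2, 7 and 6 of 12 fits. Cd55 also lost it without the 4 tumors numbered 1 (adjusted p = 0.110).

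The anaphylatoxin receptors C3ar1 (0.59, adjusted p = 0.153) and C5ar1 (0.15, adjusted p = 0.596) did not pass, nor did the lectin-pathway proteases Masp1 (-0.36, adjusted p = 0.230) and Masp2 (0.31, adjusted p = 0.416). With each monotherapy 0 of the 17 passed.

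**Figure D4:**
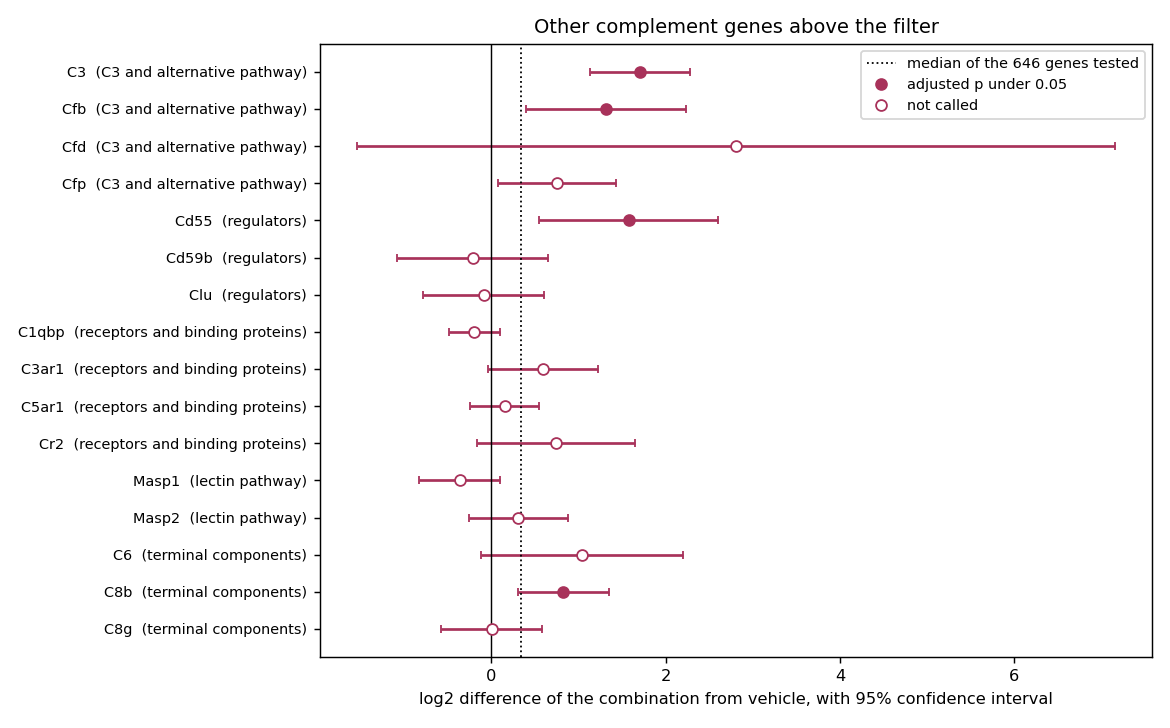
Log2 difference of the combination from vehicle for 16 of the 17 other complement genes above the filter, grouped by role, with 95% confidence intervals. Filled points passed an adjusted p of 0.05, and the dotted line is the median of all 646 genes. C3, Cfb, Cd55 and C8b are filled, and the interval of Cfd is the widest.

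Markers of several cell types were called higher under the combination, as were 21.5% of all genes tested. Of 12 macrophage and monocyte markers 2 rose, a share below that of all genes. They were Cd68, by 0.67 (adjusted p = 0.0169), and Cd84, by 0.91 (adjusted p = 0.00966). None of the 12 was called lower. Cd14, however, was lower without overlap, at 914 to 1043 with vehicle and 639 to 877 under the combination. Mrc1 had a lower mean, 2108 under the combination against 2396 with vehicle, and its tumors overlapped. The means of all other markers of the list were higher under the combination. The list had a median of 0.59, beside 0.34 for all genes. Neither Cd68 nor Cd84 had a call after centring, and Cd68 also lost it after quantile normalization (adjusted p = 0.0785). Leaving out 1 tumor kept the call of Cd68 in 9 of 12 fits and that of Cd84 in all 12. The summed normalized count of the list was 18723 to 35993 with vehicle, 24140 to 40646 with DSP-0509, 18969 to 40115 under anti-PD-1 antibody alone and 32120 to 45187 under the combination. The groups overlapped in this sum, as they did for C1qa and C1qb. Lyz2 made up much of the sum, at 10636 to 22435 with vehicle and 19898 to 29632 under the combination. Taken singly, 4 of the 12 markers lay above vehicle without overlap in the combination, beside 38.5% of all genes.

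Of 5 fibroblast and stroma markers 4 rose, beside 21.5% of all genes tested. Among them were Col3a1 by 2.17 (adjusted p = 0.0413) and Cxcl12 by 2.13 (adjusted p = 0.0142). The sum of the 5 went from 3399 to 19302 with vehicle to 19302 to 34644 under the combination. Col3a1 kept its call in 2 of 12 fits that left out 1 tumor and missed after centring (adjusted p = 0.0501), and Fap missed after quantile normalization (0.0967) and centring (0.0601). Without the 4 tumors numbered 1 none of the 4 passed. Pdgfrb, the marker that did not rise, was at -0.12 in the fit of all tumors. T cell markers rose in 5 of 5 cases, with sums of 299 to 539 with vehicle and 978 to 2052 under the combination. Of the neutrophil markers 1 of 3 tested rose, Csf3r by 1.00 (adjusted p = 0.0151), a call lost after quantile normalization (0.220), centring (0.148) and without the 4 tumors numbered 1 (0.0840). No endothelial, epithelial or B cell marker passed. No marker was at 0 in all tumors of a group, and the panel has no gene particular to CT26. The part of these cell types in the results for complement was not tested.

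Genes related to interferon gamma, a known inducer of several complement genes, rose in 7 of 7 cases in the combination, from Irf1 at 1.26 (adjusted p = 8.78e-04) to Gbp5 at 1.95 (adjusted p = 7.45e-04). The same call held for 21.5% of all genes tested. The summed normalized count of the 7 was 5364 to 7472 with vehicle, 12762 to 14085 with DSP-0509, 8732 to 14316 under anti-PD-1 antibody alone and 15230 to 22218 under the combination. Every treated tumor was above vehicle in this sum. Taken singly, 5 of the 7 genes did not overlap vehicle with DSP-0509 and 3 under the antibody, beside 16.4% and 12.4% of all genes. The part of interferon gamma in the results for complement was not tested. Ciita did not keep its call under quantile normalization or centring, and Ifng not under quantile normalization. Of 5 Fc receptor genes, most of whose products bind the antibody complexes that C1q also binds, Fcgr4 rose by 1.13 (adjusted p = 0.0236). The other 4 did not pass, so the share called was near that of all genes. Fcgr4 missed the threshold after centring.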

How the data were processed

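Total RNA of 12 CT26 tumors was hybridized to NanoString's mouse panel of immune genes (nCounter PanCancer Immune Profiling). The authors normalized the counts in nSolver 4.0, and the deposited values are a signal, which is the molecule count times 1 factor for each tumor, without background subtraction and with 14 control probes left as counted. How the factor was chosen is not given in the sources used here. Dividing by the step of the values gave the depth, 750416 to 1155697 counts per tumor. No count model was run.

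Values were taken to log2(value + 1), which understates changes of low genes. The 646 of 750 endogenous genes with at least 20 in at least 3 tumors entered lmFit and eBayes of limma 3.58.1 (R 4.3.3), fitted to the 12 tumors together without a covariate. Adjusted p-values are Benjamini-Hochberg over the 646 genes within each of 9 comparisons, and under 0.05 is called. The fit was tested on simulated data. Figures used Python 3.11.15 and matplotlib 3.10.9. The members and all gene lists were chosen with earlier results of these data known.

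Named were all 7 members, the other complement genes that passed plus C3, Cfb, C3ar1 and C5ar1, the 3 genes most correlated with each member, and lists of interferon gamma-related genes, Fc receptors and cell type markers. Masp1, Masp2 and Cfd were added after their values were seen. A gene taken by this rule is not reported here. Tumors carry the numbers 1 to 3 in each group, with no statement of what they stand for. After subtraction of group means, tumors of the same number had correlations above 0.1 throughout for vehicle with anti-PD-1 antibody (0.18 to 0.68), the combination with DSP-0509 (0.32 to 0.59) and the combination with anti-PD-1 antibody (0.14 to 0.69), so these comparisons were also read with the number as a block. Each tumor is 1 mouse, and p-values measure the spread between mice. Alternatives were another pseudocount (10), no filter or a filter of 50, 3 other scalings, only the groups compared, the methods' t-test, the replicate block and each tumor left out. Leaving out the 4 tumors numbered 1 was chosen after seeing the data.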

Additional observations from a re-analysis of the deposited data

How the results depend on the processing

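With 3 tumors per group, small differences are not detectable, and C2 and C8b rest on few molecules. A pseudocount of 10 and other filters (none, or 50) left the count of members called in each comparison as reported. Of 1070 refits of single members, 982 kept direction and side of the threshold, 36 lost and 20 gained a call, and 32 turned sign. The combination against vehicle had 3 members called after quantile normalization and 3 after centring on the median gene (C2, C4b and Serping1), beside 20.9% and 30.8% of all genes in either direction, and 3 to 5 (9.15% to 27.0%) when 1 tumor was left out. A fit of only the groups compared called 4 (14.2%). The methods' t-test gave 5 members and 203 genes at its unadjusted threshold, and 0 and 4 after adjustment. DSP-0509 against vehicle had 1 member called after rescaling to the housekeeping genes (4.33% of genes) or quantile normalization (1.55%). The average DSP-0509 effect had 4 called after rescaling to the housekeeping genes (12.8% of genes), 1 without the 4 tumors numbered 1 (3.31%), and 0 to 3 when 1 tumor was left out (0.935% to 7.43%). The average antibody effect had 3 after rescaling (13.0% of genes) and 0 to 2 with 1 tumor left out (0% to 9.67%): C2 without vehicle 3 or anti-PD-1 antibody 1 (lowest adjusted p = 0.0297), and C4b without vehicle 3 (0.0421). With the replicate block 2 members were called under DSP-0509 (12.5% of genes), 1 under the antibody (4.95%), 4 for the average DSP-0509 effect (25.1%) and 3 for the average antibody effect (19.8%), and no other count of members changed. The cause of these changes was not tested.

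Sign turned only for values that had not passed. Under quantile normalization the difference from vehicle became -0.0042 for C1qa, -0.032 for C1qb and -0.038 for C1s1 with DSP-0509 and -0.18 for C1qa and -0.099 for C1qb with the antibody, and the average antibody effect on C1qa -0.079. Under centring, C1qb was -0.13 with DSP-0509, C1qa -0.25, C1qb -0.26 and C1ra -0.11 with the antibody, and C1qa -0.13 and C1qb -0.12 with the combination. Under centring, the combination against DSP-0509 was -0.13 for C1qa and -0.0073 for C1ra, the average DSP-0509 effect on C1qb -5.34e-04, and the average antibody effect -0.19 for C1qa, -0.12 for C1qb and -0.060 for C1ra. Without the 4 tumors numbered 1, DSP-0509 gave -0.094 for C1qb and -0.14 for C1s1, and the antibody -0.038 for C1ra. Leaving out 1 tumor gave ranges with DSP-0509 of -0.020 to 0.40 for C1qa, -0.18 to 0.26 for C1qb and -0.054 to 0.46 for C1s1. With the antibody the ranges were -0.18 to 0.40 for C1qa and -0.22 to 0.37 for C1qb, and for C1qa from the antibody to the combination -0.0015 to 0.57. A planned count test on recovered molecules was not run.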

Other observations

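The tumor numbered 1 had the lowest value of its group in all 4 groups for C1qa, C1qb, C2, C4b and Serping1. The same held for 158 of the 646 genes tested (24.5%) and for 7 of the 12 macrophage and monocyte markers. Csf1r, for example, read 1061 in vehicle tumor 1 against 1613 and 1927 in the others, and 914 in antibody-treated tumor 1 against 2006 and 2093. C1ra and C1s1 went the other way in both monotherapy groups, where the tumor numbered 1 had the highest value. No source says what the numbers stand for.

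Cfd, which encodes factor D of the alternative pathway and is known as a product of fat cells, had the widest range as a ratio of highest to lowest tumor among the other complement genes. It read 18.7, 18.7 and 309 with vehicle, 17.9, 757 and 204 with DSP-0509, 8.56, 323 and 430 with anti-PD-1 antibody, and 47.5, 2244 and 378 with the combination. It differed from vehicle by 2.81 on the log2 scale in the combination and did not pass (adjusted p = 0.330). The tumor numbered 1 was the lowest or within 0.1 counts of the lowest in each group.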
